A study of Mus musculus with 4 samples.

Results

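The transcription factors that direct blood progenitors into the granulocyte and monocyte lineages were followed in 4 populations sorted from mouse bone marrow, each measured on 1 Affymetrix array. The set holds 9 genes, Cebpa, Cebpb, Cebpd, Spi1, Irf8, Gfi1, Egr2, Id2 and Myb, out of 18193 genes named on the array. Every probe set that named one of these genes alone was taken, under its current symbol or an older synonym, which gave 17 of 45101 probe sets. The rule picks probe sets by gene symbol and uses no measured value.

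LSK cells lack lineage markers and carry Kit and Sca1, and the gate takes in hematopoietic stem cells together with multipotent progenitors. MP cells are Kit-positive, lineage-negative myeloid progenitors without Sca1. The 4 groups were LSK and MP cells of wild-type marrow and LSK and MP cells of Fbw7-deficient marrow. Marrow of 3 mice was pooled for each genotype and then sorted, so within a genotype both populations came from the same animals. All animals, wild-type included, had been given polyI:C, 3 injections of 20 ug per g, and were sampled 2 weeks later. PolyI:C mimics viral double-stranded RNA, induces interferon, and is widely used to switch on the Mx1-Cre transgene. The labels name neither a Cre line nor the Fbw7 allele, and give no age. Fbw7 is the substrate-binding part of an SCF ubiquitin ligase whose known targets for destruction include MYC, cyclin E and Notch. As no group had a replicate, no error could be attached to any value and no test was possible. A difference of at least 2-fold between single arrays is called here, as a rule of size and not of significance.

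PU.1, encoded by Spi1, is an ETS-family factor needed for the myeloid and lymphoid lineages, and C/EBPalpha, encoded by Cebpa, is needed for the formation of granulocyte-monocyte progenitors. IRF8 binds DNA together with PU.1 and favours monocytes and dendritic cells over neutrophils, whereas GFI1 is a zinc-finger repressor that favours neutrophils and represses monocyte genes. EGR2 acts downstream of PU.1 on the macrophage side, ID2 blocks E proteins by binding them without contacting DNA, and MYB keeps progenitors immature and dividing.

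The promoters of Irf8 and Cebpa are shown because these 2 genes were at least 2-fold lower in Fbw7-deficient MP cells. RefSeq windows on GRCm38.p6 that run from 250 bases before to 50 bases after an annotated start were at hand for 7 of the 9 genes, with 13 windows in all. The capitals mark every match, on either strand, to 6 motifs: TTNNGCAA of C/EBP, GAGGAA of PU.1, AAATCA of GFI1, GTGGGCG of EGR factors, the 10-base composite of IRF and ETS factors (GGAA, any 2 bases, GAAA) and the 10-base IRF repeat (GAAA, any 2 bases, GAAA), of which the last 2 can overlap.
Irf8, chr8:120736108-120736407, + strand: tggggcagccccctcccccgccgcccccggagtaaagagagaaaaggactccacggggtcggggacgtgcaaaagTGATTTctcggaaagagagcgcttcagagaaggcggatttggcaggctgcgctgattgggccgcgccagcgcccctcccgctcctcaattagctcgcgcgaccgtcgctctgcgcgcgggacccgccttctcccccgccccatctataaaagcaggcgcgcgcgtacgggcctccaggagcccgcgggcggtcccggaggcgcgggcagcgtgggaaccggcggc
Cebpa, chr7:35119043-35119342, + strand: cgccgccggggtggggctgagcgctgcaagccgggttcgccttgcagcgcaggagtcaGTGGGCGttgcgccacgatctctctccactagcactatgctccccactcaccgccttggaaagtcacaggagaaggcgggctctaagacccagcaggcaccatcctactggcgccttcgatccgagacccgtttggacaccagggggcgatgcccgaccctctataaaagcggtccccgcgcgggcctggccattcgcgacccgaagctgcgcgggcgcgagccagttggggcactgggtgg
The Irf8 window held 1 match to the GFI1 motif, read on the opposite strand and starting 175 bases before the start site, and none to the other 5. A second annotated start of Irf8 also had 1 GFI1 match, 226 bases before it. Of all 32851 windows of the same length, 14% held AAATCA. The Cebpa window held 1 match to the EGR motif, 192 bases before the start site, which 7.97% of all windows held. Among the other members, 1 window of Gfi1 held the C/EBP motif (10.8% of all windows) and 4 of the 5 windows of Egr2 held GAGGAA (28.3% of all windows), 3 of which overlap and hold the same site. The EGR motif was also in 1 window of Gfi1 and 1 of Egr2. The MYB motif AACNG was in all 13 windows and in 80.3% of all windows, so it was not marked. The composite and the IRF repeat, in 2.72% and 3.44% of all windows, had no match in the 13. These are matches of letters, and binding was not measured.

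The labelled populations agreed in direction with their markers. All 11 measured stem cell markers of the list used here read higher in LSK than in MP cells of wild-type marrow, 9 of them by at least 2-fold, and all 11 measured neutrophil and monocyte progenitor markers were lower in LSK, 7 by at least 2-fold. Kit read between 4190 and 6723 on the 4 arrays on its brighter probe set. No probe set named Ly6a, which encodes Sca1, alone, so the Sca1 part of the gates was not checked. The targeted gene itself was not lower in both populations. Fbxw7, which encodes Fbw7, differed between the genotypes by log2 -0.30 in LSK and 0.47 in MP on the probe set 1451558_at, and by 0.09 and 0.44 on the probe set 1424986_s_at, so both probe sets read higher in the MP cells labelled Fbw7-deficient. The labels do not say which part of the gene was removed, so whether these probe sets can report its loss is not known, and Fbw7-deficient stands throughout for the submitters' label. The wild-type LSK array had the largest ratio of 3' to 5' signal for Gapdh, 4.30 against 2.60 to 2.95 on the other arrays, and the added poly-A control RNAs were lower on the Fbw7-deficient than on the wild-type MP array, with a median log2 difference of -0.68 over 24 probe sets, against -0.04 between the LSK arrays. The median intensity lay between 155 and 159 on all arrays.

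All 9 genes passed the level filter, an intensity of at least 157 on 1 or more arrays, which is the median of all values. By probe set, 13 of 17 passed. The 4 others were 1 of Cebpb, 1 of Egr2 and 2 of Id2. Where a gene had several, the probe set with the highest mean stands for it in counts, and levels are compared between arrays for the same probe set and never between genes.

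In LSK cells 1 of the 9 genes, Cebpd, was at least 2-fold higher in the Fbw7-deficient population and none was 2-fold lower, where 1.79% of all 12239 genes above the filter were higher and 1.95% lower by this rule. In MP cells none was 2-fold higher and 2, Irf8 and Cebpa, were 2-fold lower, where 0.825% of all genes were higher and 1.49% lower. In LSK 7 of 9 genes lay above 0, where 50.7% of all genes did, and in MP 3 of 9, where 49.6% did. Cebpa, Cebpd, Spi1 and Irf8 lay above 0 in LSK and below 0 in MP. Cebpb, Gfi1 and Id2 lay above 0 in both populations, and Egr2 and Myb below 0 in both. The median log2 difference over the 9 genes was 0.41 in LSK and -0.16 in MP, against 0.0048 and -0.0024 over all genes. When the genotype difference in MP was subtracted from that in LSK, 3 of the 9 genes (Irf8, Cebpd and Cebpa) were apart by at least 2-fold toward LSK and none toward MP, against 2.20% and 1.32% of all genes. With the mean of each gene's probe sets, 2 remained past 2-fold, Irf8 and Cebpa. Fewer cells of a type within a gate and less RNA per cell cannot be told apart in these pooled samples.

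**Figure D1:**
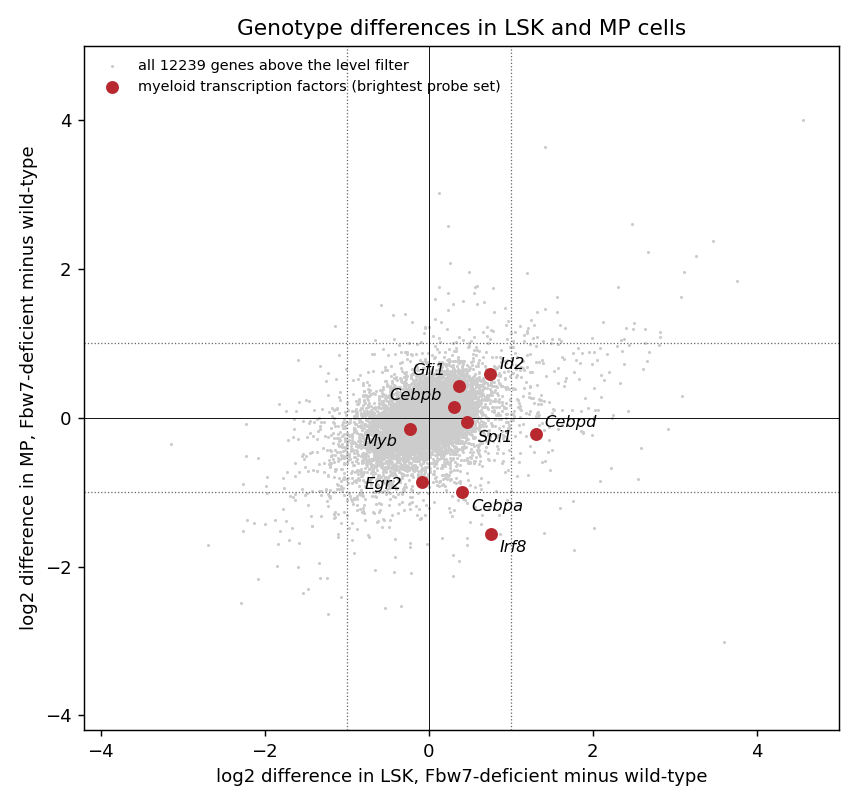
Log2 difference between Fbw7-deficient and wild-type cells in LSK (horizontal) and in MP (vertical), with 1 array per group; grey points are the 12239 genes above the level filter, red points the 9 myeloid transcription factors on their brightest probe set, and dotted lines mark 2-fold. Irf8 (0.76, -1.56) and Cebpa (0.41, -1.003) lie above 0 in LSK and below 0 in MP, Cebpd lies beyond 2-fold in LSK (1.31), and Myb and Egr2 are below 0 in both.

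Irf8 had the largest genotype difference of the set in MP, and its 2 probe sets moved alike. On the brighter one, 1416714_at, it read 4955 in LSK and 9804 in MP cells of wild-type marrow and 8366 and 3318 in those of Fbw7-deficient marrow. Irf8 was thus highest in MP cells of wild-type marrow and lowest in MP cells of Fbw7-deficient marrow, with both LSK arrays between them. Its log2 difference between genotypes was 0.76 in LSK (1.69-fold higher) and -1.56 in MP (2.96-fold lower). Of 12239 genes, 38 had a lower value than Irf8 in MP and 356 a higher one in LSK. The other probe set, 1448452_at, read 858 in LSK and 1995 in MP cells of wild-type marrow and 1585 and 722 in the Fbw7-deficient ones, with log2 differences of 0.89 and -1.47. The order of the populations turned with the genotype: wild-type LSK was below wild-type MP by 0.98 on the log2 scale on the brighter probe set, and Fbw7-deficient LSK was above Fbw7-deficient MP by 1.33. The difference between the genotype differences was 2.32, a value that only 15 of 12239 genes exceeded, and 2.35 on the other probe set. The comparison in MP and that of the Fbw7-deficient populations leave out the wild-type LSK array, whose 3' to 5' ratio was high. The Fbw7-deficient MP array, on which Irf8 was low, was also the one with low poly-A controls, whose part in the result was not tested. It is also the array on which Fbxw7 read higher than its wild-type counterpart.

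Irf8 lies beside changes in the markers of other cell types in MP. From wild-type to Fbw7-deficient MP the summed intensity of 11 early lymphoid markers went from 11824 to 5701 and that of 11 dendritic cell markers from 5417 to 2903. Bright genes weigh most in such sums: in the early lymphoid one, Ighm alone went from 5850 to 2718. The sum of 10 monocyte and macrophage markers went from 26293 to 19228. Sums of other lists fell too: 11 megakaryocyte markers from 12719 to 7682, 9 B cell markers from 3681 to 2323 and 11 stem cell markers from 5573 to 4039. All 9 early lymphoid markers above the filter were lower, 5 by at least 2-fold. So were 7 of 8 dendritic markers, 4 by 2-fold: H2-Aa, H2-Ab1, Cd74 and Flt3. Flt3 is in both lists. The other dendritic markers, Itgax, Bst2, Ly6d and Zbtb46, lay between log2 -0.27 and 0.14. The sum of 10 erythroid markers went from 50358 to 74173, with all 9 above the filter higher and 3 by 2-fold. The sum of 11 neutrophil and monocyte progenitor markers was 185605 and 184546. Singly, 7 of these 11 were higher and 4 lower, none by 2-fold, from log2 -0.83 (F13a1) to 0.88 (Fcnb). On the Fbw7-deficient MP array 5 early lymphoid, 3 dendritic and 1 erythroid marker read below the level filter, against 3, 3 and 1 in wild-type MP. The part of these cell types in the Irf8 and Cebpa values was not tested.

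**Figure D2:**
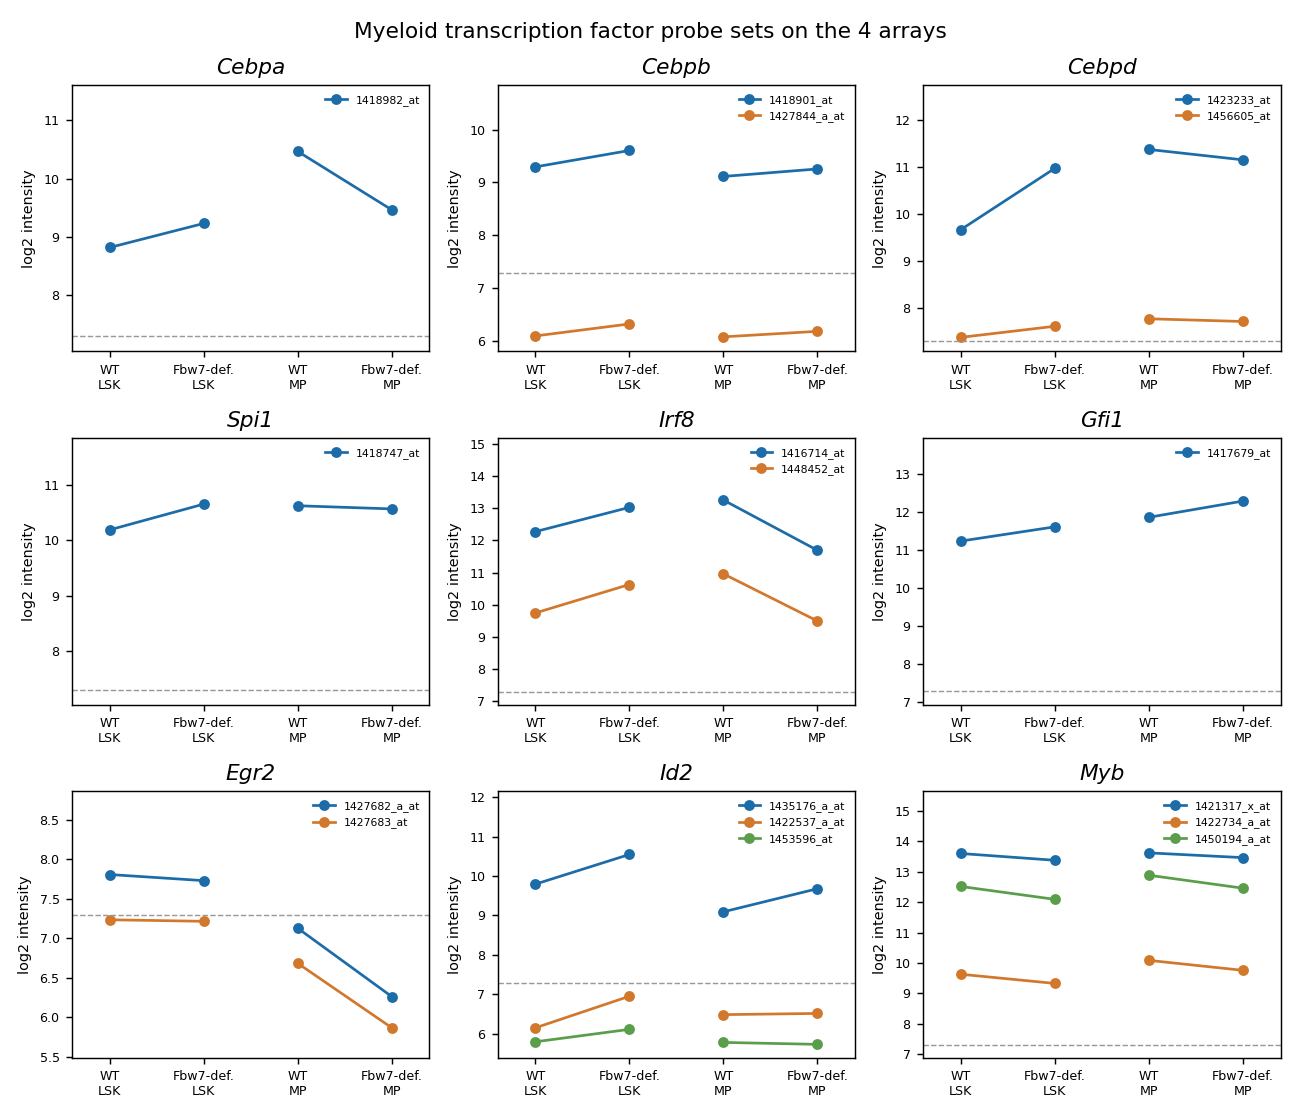
Log2 intensity (vertical) of all 17 probe sets of the 9 genes on the 4 single arrays (horizontal; WT is wild-type, Fbw7-def. is Fbw7-deficient); each colour is 1 probe set, lines join the genotypes of a population, the dashed line is the level filter of 157, and axes do not start at 0. Both Irf8 probe sets slope up in LSK and down in MP, the brighter Cebpd probe set is lowest in wild-type LSK (810), and all 3 Myb probe sets slope slightly down in both populations.

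Spi1, whose product PU.1 partners IRF8 on DNA, passed 2-fold in none of the comparisons. Its 1 probe set read 1170 in LSK and 1584 in MP cells of wild-type marrow and 1618 and 1522 in those of Fbw7-deficient marrow. The wild-type LSK array was lowest and the other 3 lay close together. The log2 difference between genotypes was 0.47 in LSK and -0.06 in MP.

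The 3 C/EBP genes did not move as 1 group. Cebpa read 451 in LSK and 1416 in MP cells of wild-type marrow and 601 and 706 in those of Fbw7-deficient marrow on its only probe set. Wild-type MP stood above the other 3 arrays. In wild-type marrow LSK was 3.14-fold below MP, whereas the Fbw7-deficient populations were 1.17-fold apart. The genotype difference was log2 0.41 in LSK and -1.003 in MP, a 2.004-fold lower value that sits at the 2-fold line and misses it under 2 alternatives: it was -0.97 after quantile normalisation and -0.95 with 50 added to each intensity. The low poly-A controls of the Fbw7-deficient MP array and its Fbxw7 reading stand beside this value too.

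Cebpd, which encodes a C/EBP factor induced in inflammation and in maturing granulocytes, was the gene of the set with the largest difference in LSK. On the brighter probe set it read 810 in LSK and 2648 in MP cells of wild-type marrow and 2006 and 2272 in those of Fbw7-deficient marrow. The wild-type LSK array stood below the other 3. The log2 difference was 1.31 in LSK (2.48-fold higher), with 136 of 12239 genes above it, and -0.22 in MP. The other Cebpd probe set, close to the filter with 165 and 217 in wild-type LSK and MP and 194 and 209 in Fbw7-deficient LSK and MP, gave 0.24 in LSK and -0.06 in MP, and with the mean of both probe sets no member passed 2-fold in LSK. Both values rest on the wild-type LSK array, where the Gapdh ratio was 4.30. In LSK the summed intensity of 10 mature neutrophil markers went from 66245 to 137907 and that of 11 neutrophil and monocyte progenitor markers from 79896 to 139637 between wild-type and Fbw7-deficient cells, with all measured markers of both lists higher and none below the level filter on any array. The sum of 10 monocyte and macrophage markers went from 17713 to 33946, that of 10 erythroid markers from 19681 to 38345 and that of 11 stem cell markers from 23965 to 9808. The part of mature or committed cells, or of the RNA quality, in the Cebpd value was not tested.

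Cebpb, another inflammation-responsive C/EBP gene, differed little. It read 627 in LSK and 553 in MP cells of wild-type marrow and 778 and 610 in those of Fbw7-deficient marrow, with log2 genotype differences of 0.31 and 0.14. Its second probe set stayed between 67.3 and 79.7, below the filter on every array.

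Gfi1 was higher in MP than in LSK in both genotypes and higher in Fbw7-deficient cells in both populations. It read 2418 in LSK and 3731 in MP cells of wild-type marrow and 3135 and 5013 in those of Fbw7-deficient marrow, with log2 genotype differences of 0.37 and 0.43. These differed from each other by only -0.05. In MP the factor that favours neutrophils thus read 1.34-fold higher while Irf8 read 2.96-fold lower. In LSK both read higher, Gfi1 by 1.30-fold and Irf8 by 1.69-fold.

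Egr2 was a dim gene with its highest value in wild-type LSK. The brighter probe set read 224 in LSK and 140 in MP cells of wild-type marrow and 212 and 76.7 in those of Fbw7-deficient marrow. Both MP values lay under the filter, so the exact size of any difference there is not established. The log2 genotype difference was -0.08 in LSK and -0.87 in MP, and the second probe set, below the filter on all 4 arrays, gave -0.02 and -0.82.

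Id2 was higher in Fbw7-deficient cells of both populations on its one probe set above the filter. It read 887 in LSK and 545 in MP cells of wild-type marrow and 1496 and 818 in those of Fbw7-deficient marrow. The log2 differences were 0.75 and 0.59, short of 2-fold, with 358 and 360 of 12239 genes higher. Unlike Cebpa and Cebpd, Id2 read higher in LSK than in MP in both genotypes, by log2 0.70 and 0.87. The other 2 probe sets read between 52.9 and 123, below the filter, and gave 0.80 and 0.32 in LSK but 0.03 and -0.05 in MP.

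Myb read lower in Fbw7-deficient cells on every probe set in both populations. The probe set 1450194_a_at read 5862 in LSK and 7573 in MP cells of wild-type marrow and 4367 and 5636 in those of Fbw7-deficient marrow, a log2 difference of -0.42 in LSK and -0.43 in MP. A dimmer probe set gave -0.30 and -0.33. The brightest, of a kind marked as prone to cross-hybridise, read from 10654 to 12618 and gave -0.22 and -0.16. None reached 2-fold, and the 2 genotype differences of 1450194_a_at were within 0.0017 of each other.

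Between the populations, 2 of the 9 genes, Cebpa and Cebpd, were at least 2-fold lower in LSK than in MP cells of wild-type marrow and none was 2-fold higher, where 2.40% of all genes were lower and 5.05% higher. Irf8 lay just short of 2-fold (1.98-fold) on its brighter probe set and past it (2.33-fold) on the other. In the Fbw7-deficient marrow none was 2-fold lower in LSK, and 2, Irf8 (log2 1.33) and Egr2, were 2-fold higher, against 1.63% lower and 3.86% higher over all genes. The Egr2 call rests on the value of 76.7 in MP, under the filter, so its size is not established: it was log2 1.47 as read and 1.05 with 50 added to each intensity, and the second probe set gave 1.35 and 0.87. The wild-type comparison shares its arrays with both genotype comparisons, so these values are a restatement of the same readings and not a further measurement.

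Relatives of the factors were taken from lists compiled here from general knowledge. The shares of all genes to set beside the counts of these and the following lists were 1.79% higher and 1.95% lower in LSK. In MP they were 0.825% and 1.49%. Apart from the members, none of the 2 measured C/EBP genes, 7 interferon regulatory factors, 9 ETS factors, 6 genes of the GFI group, 4 of the ID and E protein group and 3 of the MYB group passed 2-fold in either genotype comparison. In the EGR group 1 of 5 did: Egr1, an immediate early factor, read 20981 in LSK and 7090 in MP cells of wild-type marrow and 11484 and 3335 in those of Fbw7-deficient marrow, with log2 differences of -0.87 and -1.09. Egr1 and Egr2 were thus both lower in Fbw7-deficient MP.

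Further transcription factors of monocytes and dendritic cells were mostly lower in Fbw7-deficient MP. Besides the members, 7 of 8 measured genes of this list lay below 0 there, 2 by at least 2-fold and 1 above 2-fold, with a median log2 difference of -0.60. Klf4, a factor of monocyte differentiation, read 2714 in wild-type and 1272 in Fbw7-deficient MP (log2 -1.09), and Zeb2, a zinc-finger repressor, 3265 and 1496 (log2 -1.13). Maf went the other way, from 76.1, under the filter, to 176. In LSK, Klf4 had a log2 difference of -0.78 and the nuclear receptor gene Nr4a1 of -1.20 (10181 to 4437), against 0.76 for Irf8. The remaining 5 granulocyte factors of the lists had medians of -0.24 in LSK and 0.07 in MP, with none past 2-fold. Of 16 stem, erythroid and megakaryocytic factors, 13 lay below 0 in LSK, 3 by 2-fold (Hlf, Mecom and Meis1), and 1, the erythroid factor Klf1, was 2-fold higher (1014 to 3035).

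Most myeloid cytokine receptors, which carry the signals that these progenitors grow on, also read lower in Fbw7-deficient MP. Of 14 measured, 13 lay below 0 there, 3 by at least 2-fold, with a median of -0.45. The receptor for macrophage colony-stimulating factor, Csf1r, read 2567 in LSK and 5624 in MP cells of wild-type marrow and 4281 and 2410 in those of Fbw7-deficient marrow, with log2 differences of 0.74 and -1.22. The order of its 4 arrays was that of Irf8, with wild-type MP highest and Fbw7-deficient MP lowest. Il6st, the shared signalling chain of the interleukin 6 family, read 782 and 314 in MP (log2 -1.32), and Flt3, the receptor of early lymphoid and dendritic progenitors, 1229 and 521 (log2 -1.24). In LSK none of the 14 passed 2-fold and the median was 0.25.

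The reported targets of the factors split by population in the C/EBP and PU.1 lists. Over all genes, 1.79% were 2-fold higher and 1.95% lower in LSK, and 0.825% and 1.49% in MP. These shares stand beside the counts of every target list. Of 17 measured C/EBP targets, 8 were at least 2-fold higher in Fbw7-deficient LSK and none lower, with a median of 0.96, while in MP none was 2-fold higher, 1 was lower and the median was 0.05. The 8 are granule and surface genes of neutrophils and their precursors. Elane, which encodes neutrophil elastase, read 1322 and 9986 in LSK (log2 2.92) and 23552 and 21158 in MP, and Ms4a3, a marker of granulocyte-monocyte progenitors, 1225 and 6609 in LSK (log2 2.43) and 13381 and 14225 in MP. All 8 also stand in the myeloid marker lists used here. The 5 measured targets outside those lists, Csf3r, Il6ra, Gfi1, Trib2 and Sox4, had medians of -0.31 in LSK and -0.69 in MP. In LSK, Il6ra and Gfi1 lay above 0. The 5 include Gfi1, a member of the set, and a target that C/EBPalpha represses, so the sign of these medians does not give the direction of C/EBP action. Sox4, which C/EBPalpha represses, was the 1 target 2-fold lower in MP (4282 to 1552).

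Of 21 measured PU.1 targets, 16 lay above 0 in LSK and 18 below 0 in MP, with medians of 0.26 and -0.26. Over all genes, 50.7% lay above 0 in LSK and 49.6% in MP. Of the 21, 3 also stand in the myeloid marker lists, and the other 18 had medians of 0.22 and -0.25. Flt3 and Il7r are early lymphoid markers too. The part of these cell types in the values was not tested. In LSK 4 were at least 2-fold higher: the Fc receptor gene Fcgr3 (372 to 1524), Cybb of the phagocyte oxidase (758 to 2802), Cd14 (242 to 668) and Ly86 (823 to 2188). In MP 3 were 2-fold lower, Csf1r, Ly86 and Flt3. Ly86, which encodes the MD-1 partner of a Toll-like receptor relative, read 3245 in wild-type and 1112 in Fbw7-deficient MP (log2 -1.55) and so was 2-fold apart in opposite directions in the 2 populations.

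Of 8 measured IRF8 targets, 1 was 2-fold higher in LSK (Cybb) and 2 were 2-fold lower in MP, Klf4 and the invariant chain gene Cd74 (707 to 301, log2 -1.23), with medians of -0.12 and -0.30. Among 14 genes reported as repressed by GFI1, none was 2-fold higher and 1 lower in LSK, and 4 were 2-fold lower in MP, Egr1, Csf1r, Meis1 and Irf8, with medians of -0.10 and -0.36. This list holds 4 members of the set, Egr2, Id2, Irf8 and Gfi1 itself. Without them the medians over 10 genes were -0.23 and -0.36. Of 13 MYB targets, 3 were 2-fold lower in MP: Cd34 (6491 to 1103), the survival gene Bcl2 (2782 to 864) and Flt3. In LSK, 1 was 2-fold higher, Elane, and 1 lower, Gata3 (225 to 79.9, the latter under the filter). The medians of the MYB list were -0.23 in LSK and 0.0057 in MP, where 7 genes lay above 0 and 6 below. The target lists overlap, as the repeated names show.

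**Figure D3:**
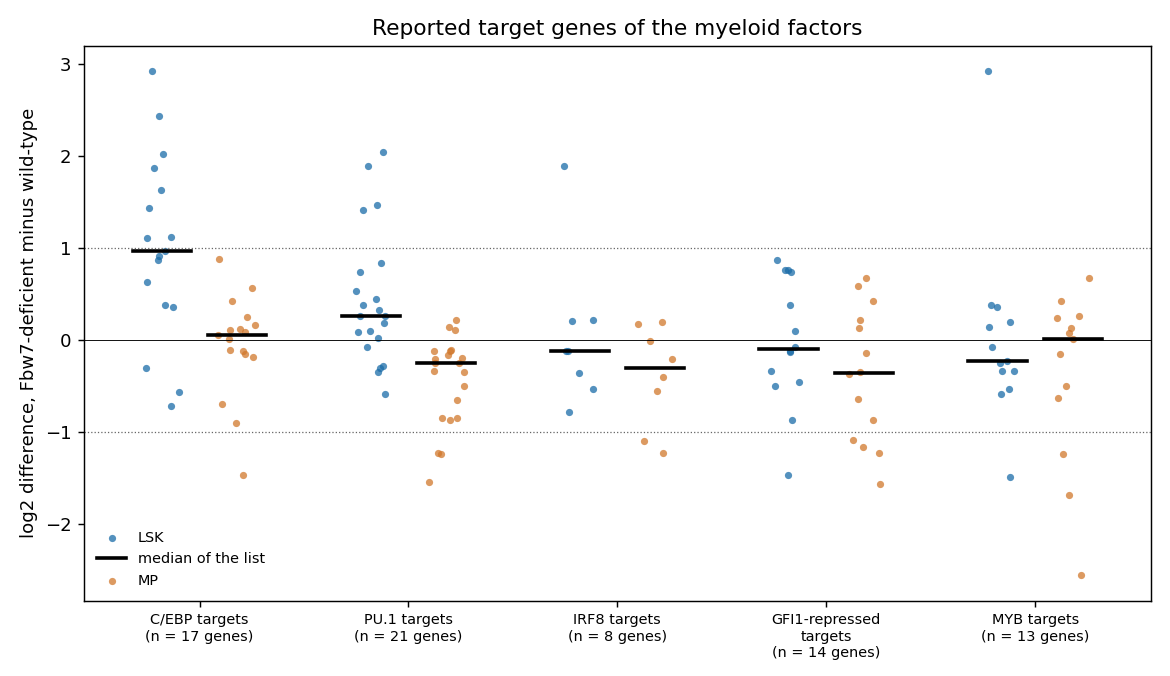
Log2 difference between Fbw7-deficient and wild-type cells (vertical) for measured members of 5 lists of reported target genes, in LSK (blue) and MP (orange), with 1 array per group; each point is 1 gene on its brightest probe set, black bars are list medians, sideways spread has no meaning, and dotted lines mark 2-fold. The C/EBP list has a median of 0.96 in LSK and 0.05 in MP, and the PU.1 list 0.26 and -0.26.

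The genes with the most similar pattern over the 4 arrays were found for the 4 members that passed 2-fold between any pair of arrays compared, as the smallest distance between log2 values centred on each gene's mean. For Irf8 they were Ms4a6c (distance 0.16), Cd300lb (0.26) and Nrp1 (0.27). Ms4a6c read 2496 in LSK and 4679 in MP cells of wild-type marrow and 4578 and 1592 in those of Fbw7-deficient marrow. For Cebpa they were Ubxn8 (0.07), Etfb (0.20) and Fut4 (0.29), for Cebpd they were Sgip1 (0.14), Rab7b (0.17) and Rhou (0.22), and for Egr2 they were Abhd6 (0.07), Ipcef1 (0.09) and Bok (0.16). Likeness over only 4 arrays is a weak description.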

How the data were processed

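Gene expression was measured on 4 single Affymetrix arrays, 1 each for wild-type and Fbw7-deficient LSK and MP cells, from 20 ng of total RNA amplified in 2 cycles and labelled with biotin, per the labels' protocols. The deposited values are intensity on a linear scale, 1 value per probe set, made by the authors with RMA (named in the submitters' processing notes, with no version or settings in the sources used here). RMA gives all arrays nearly the same distribution, which hides a change common to most genes, and it shrinks differences of dim genes.

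Here, values were taken to log2 and subtracted between arrays. Probe sets naming exactly 1 gene (34945 of 45101; 932 name several, 9224 none, controls included) were used, and 34741 had their symbol updated through the gene ID (RefSeq, GRCm38.p6). The probe set of highest mean stands for a gene, and genes reaching an intensity of 157 on any array were kept. The calling step was checked on simulated data, with a shift past the threshold put into every probe set of chosen genes on the Fbw7-deficient LSK array. The simulation held no fault of a whole array, so it does not show how reliable calls from single arrays are. No test was possible with single arrays. The 9 genes, the gene lists and the alternatives were chosen with earlier results of these data known. All member probe sets are reported. From the other lists, up to 6 genes past 2-fold in a genotype comparison could be named, the largest first, beside the count over the whole list, and the 3 genes nearest in pattern were named for each member past 2-fold; not every gene so eligible is printed. The 16 gene lists were compiled from general knowledge, as were the 12 marker lists. Medians of further marker lists in LSK and MP were -0.75 and -0.36 for megakaryocytes, 0.48 and -0.68 for B cells, and 0.14 and -0.03 for T and NK cells. They were -0.29 and 0.46 for mast cells, basophils and eosinophils, and 0.17 and 0.05 for stromal and endothelial cells. Scripts ran in Python 3.11.15 with pandas 2.3.3 and numpy 2.4.6.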

Additional observations from a re-analysis of the deposited data

Results flagged for a closer look

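Irf8, Cebpd and Cebpa each had genotype differences of opposite sign in LSK and MP cells that lay at least 2-fold apart on their brightest probe set. The difference between the LSK and the MP value was log2 2.32 for Irf8, 1.53 for Cebpd and 1.42 for Cebpa. The second probe set of Irf8 gave 2.35, whereas that of Cebpd gave 0.29, and Cebpd was no longer 2-fold apart with the mean of its probe sets. Each value rests on 4 single arrays, so the difference was not tested.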

How the results depend on the processing

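No paired analysis was possible because each group has 1 array, although both populations of a genotype were sorted from 1 pool of animals, and no array could be left out for the same reason. The alternatives were no level filter, a stricter filter (606, the upper quartile), the mean of all probe sets of a gene, leaving out probe sets with the suffix _s_at or _x_at, quantile normalisation, centring on the median, and adding 50 before log2. With no replicates, a median is taken as moved when it shifts by more than an SD of 0.32 to 0.50. That is the SD, across genes, of the difference between a gene's next and its brightest probe set. A count is taken as moved by its ratio to the main count. The medians of -0.16 in MP, -0.44 between the wild-type and 0.09 between the Fbw7-deficient populations are smaller than their SD (0.32, 0.50 and 0.42). A change of sign there could pass as not moved. Dropping the level filter cannot change member values, as all 9 pass. Of 105 values that answer a comparison, 99 did not move by these loose rules. With the mean of all probe sets no member passed 2-fold in LSK (0 in place of 1), 2 members, Irf8 and Cebpa, in place of 3 were 2-fold apart between the genotype differences, and the count of all genes past 2-fold in MP was 171 in place of 283. Members past 2-fold in MP numbered 1, Irf8, in place of 2 after quantile normalisation, and also 1 with 50 added. With the stricter filter, which removes Egr2, 1 member was past 2-fold between the Fbw7-deficient populations in place of 2, and 283 genes in place of 431 differed by 2-fold between the genotype differences, where fewer genes were tested (7811). Of 255 single probe set values, 252 kept their side of 2-fold and none changed sign after a call. Precision is limited by the number of arrays, and no difference has a measured error.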
